A study of Mus musculus with 6 samples.

Results

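The strong distal WT-only peaks were 359 autosomal ATAC-seq peaks of wild-type (WT) mouse embryonic stem cells (mESCs) with no overlapping peak in a Spen KO line. They were selected on measured values: no shared base with any peak of the Spen KO clone 3 list, a score no lower than the WT list's median, and a midpoint more than 1 kb from every transcription start site (TSS) of a protein-coding gene. The score is the mean of 2 values per peak in the file, 1 for each replicate. The 359 were part of 22753 peaks in the WT list, of 21698 on the autosomes, and of 5170 autosomal peaks that met the score and distance criteria (6.94%). Among all autosomal WT peaks, 26.0% had no overlapping Spen KO clone 3 peak. The absence of a peak chose these sites, so it is a description and carries no test.

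The study used haploid mESCs of mixed genomic background with a doxycycline-inducible Xist transgene, called HATX WT, and lines of the same origin with Spen deleted, called Spen KO. The labels name 6 samples, with WT, Spen KO clone 2 and Spen KO clone 3 each cultured in serum and LIF without doxycycline or with 2 ug/ml for 48 hours. The lists analysed here were 1 for WT and 1 for Spen KO clone 3, each made from 2 replicates that the methods call technical, and neither list names its doxycycline state. Spen KO clone 2 was not analysed here, so each genotype stood for 1 line, a clone cannot be told apart from the genotype, and no p-value is given.

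ATAC-seq uses the Tn5 transposase to insert adapters where DNA is open, so that a peak marks an accessible site. Accessible sites away from promoters are often enhancers, which bind sequence-specific factors and act on genes at a distance, or insulator sites bound by CTCF, which holds chromatin loops together with cohesin. Spen is a large RNA-binding co-repressor that Xist RNA recruits to silence the X chromosome, and it also takes part in Notch signalling through Rbpj. In mESCs, distal accessible sites are typically bound by Oct4, Sox2, Klf and Esrrb factors.

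The label of the cells was checked on 11 core pluripotency genes. Of these, 9 had a WT peak within 5 kb of a TSS and 6 had a Spen KO clone 3 peak, and within 1 kb the numbers were 5 and 2. Zfp42, a marker of undifferentiated mESCs, had a promoter peak of score 37.7 in WT and 34.1 in Spen KO clone 3. The site 4.71 kb from the Nanog TSS scored 42.0 and 29.8, the one nearest Pou5f1 16.6 and 17.0, and the one nearest Dppa2 21.1 and 23.9. A peak lay 53 bp from the Sox2 TSS in WT (score 14.8), and the nearest Spen KO clone 3 peak was 18.5 kb away. The Spen promoter itself had a peak in both lists, and coordinates of the deletion are not given in the sources used here, so this peak does not check it. No member of the strong distal WT-only set lay within 100 kb of any of the 11 genes.

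The sequences of 7 of these sites are shown, read from the mm9 reference (NCBIM37) on the plus strand, 5′ to 3′, as the central 300 bases of each peak and named by the nearest coding gene. Capitals mark every match to the motifs searched. The Rbfox1, S1pr1 and March5 peaks are given as 3 of the 4 highest-scoring members, Hs6st1 and Amigo2 as the 2 highest-scoring with the NFY motif CCAATCA, and Mettl14 and Il33 as the 2 highest-scoring with the CTCF core.
Rbfox1 peak, chr16:6686324-6686623: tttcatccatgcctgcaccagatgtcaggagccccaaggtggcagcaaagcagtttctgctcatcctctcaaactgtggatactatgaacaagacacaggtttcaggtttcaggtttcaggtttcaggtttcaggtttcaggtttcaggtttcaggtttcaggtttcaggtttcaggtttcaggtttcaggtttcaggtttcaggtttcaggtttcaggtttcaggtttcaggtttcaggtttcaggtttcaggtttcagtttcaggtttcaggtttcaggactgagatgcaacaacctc
S1pr1 peak, chr3:115461472-115461771: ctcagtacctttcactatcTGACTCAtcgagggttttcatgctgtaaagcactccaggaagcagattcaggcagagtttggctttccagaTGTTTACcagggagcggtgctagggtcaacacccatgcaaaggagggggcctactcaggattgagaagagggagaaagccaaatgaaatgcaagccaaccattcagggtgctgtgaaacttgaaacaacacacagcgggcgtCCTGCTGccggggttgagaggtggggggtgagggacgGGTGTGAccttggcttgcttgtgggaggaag
March5 peak, chr19:37326574-37326873: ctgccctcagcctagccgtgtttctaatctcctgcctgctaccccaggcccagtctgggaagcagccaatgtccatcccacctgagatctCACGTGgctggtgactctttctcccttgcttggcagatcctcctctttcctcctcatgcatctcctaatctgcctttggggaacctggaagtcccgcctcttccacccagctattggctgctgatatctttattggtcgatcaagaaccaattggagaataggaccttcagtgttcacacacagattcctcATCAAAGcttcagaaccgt
Hs6st1 peak, chr1:35926627-35926926: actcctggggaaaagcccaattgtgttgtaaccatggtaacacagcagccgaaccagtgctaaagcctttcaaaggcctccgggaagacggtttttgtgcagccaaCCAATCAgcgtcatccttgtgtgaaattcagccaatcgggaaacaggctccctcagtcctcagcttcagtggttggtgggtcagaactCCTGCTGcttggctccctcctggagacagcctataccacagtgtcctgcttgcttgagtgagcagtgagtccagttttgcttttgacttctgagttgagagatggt
Amigo2 peak, chr15:97251938-97252237: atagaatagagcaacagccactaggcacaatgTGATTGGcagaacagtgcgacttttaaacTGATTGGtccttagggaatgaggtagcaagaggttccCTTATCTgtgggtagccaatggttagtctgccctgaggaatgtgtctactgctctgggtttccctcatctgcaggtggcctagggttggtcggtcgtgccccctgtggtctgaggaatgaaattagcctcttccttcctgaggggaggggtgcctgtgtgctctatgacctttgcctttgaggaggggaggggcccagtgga
Mettl14 peak, chr3:123074844-123075143: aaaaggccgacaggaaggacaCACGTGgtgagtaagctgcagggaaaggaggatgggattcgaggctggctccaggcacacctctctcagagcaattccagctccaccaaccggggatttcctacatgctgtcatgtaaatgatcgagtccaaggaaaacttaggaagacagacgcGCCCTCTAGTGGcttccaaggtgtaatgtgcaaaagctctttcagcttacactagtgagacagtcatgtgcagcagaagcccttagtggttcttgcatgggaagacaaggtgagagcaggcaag
Il33 peak, chr19:30022809-30023108: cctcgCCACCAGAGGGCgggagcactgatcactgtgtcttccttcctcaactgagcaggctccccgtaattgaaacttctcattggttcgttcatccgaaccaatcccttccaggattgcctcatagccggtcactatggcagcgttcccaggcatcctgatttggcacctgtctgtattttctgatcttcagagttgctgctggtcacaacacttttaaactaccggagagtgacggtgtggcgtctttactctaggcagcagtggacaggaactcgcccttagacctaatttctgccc

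The Rbfox1 sequence was a tandem array, with the 7-base unit TTTCAGG found 25 times and 22 times without a break. The S1pr1 sequence held TGACTCA, a match to the AP-1 motif TGANTCA. The March5 sequence held the pentamer CCAAT on either strand 5 times without a match to the longer CCAATCA. The Hs6st1 sequence held CCAATCA once, and the Amigo2 sequence held its reverse complement TGATTGG at 2 places.

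The members were mostly near the threshold that chose them. Their scores ran from 19.5 to 45.1 with a median of 21.5, and the middle 2 quartiles lay between 20.3 and 23.8. The first replicate's value ranged from 11.8 to 45.4 (median 22.2) and the second's from 12.8 to 52.7 (median 21.6). Both values reached the threshold in 203 members, the first was the higher in 208, they differed by under 1.5 times in 301, and by over 2 times in 11. The IDR, the authors' measure of disagreement between the replicates, had a median of 4.35e-04, was at most 0.001 in 271 members and at most 0.01 in 351. The scale of the values is not named in the file, so they rank peaks and do not give accessibility in absolute terms.

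**Figure D1:**
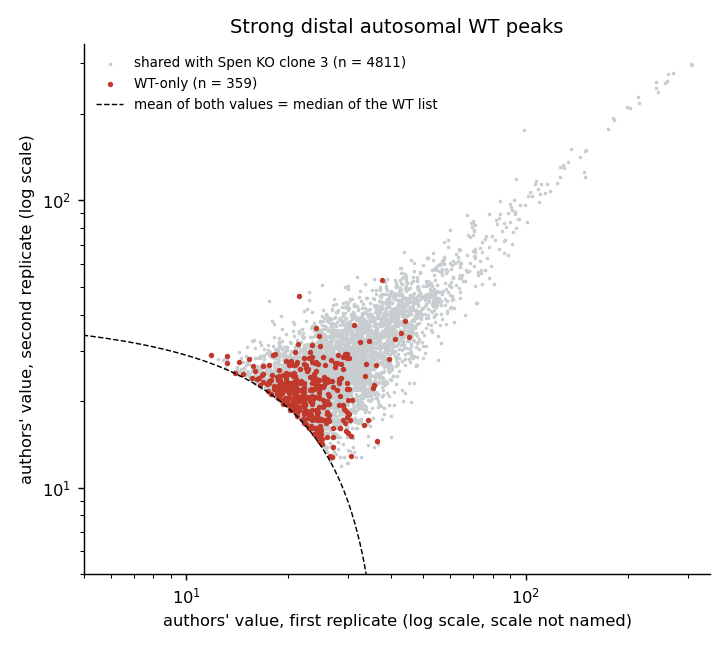
Values given by the authors for the first (x axis) and second (y axis) replicate of each strong distal autosomal WT peak, on log axes. Red points are the 359 WT-only peaks, grey points the 4811 shared with Spen KO clone 3, and the dashed line is a mean equal to the median of the WT list. The red points lie close to the line, with a median score of 21.5 against 26.3 for the grey ones.

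The highest-scoring member, at chr16:6686220-6686727, had replicate values of 37.6 and 52.7 and a score of 45.1, above 94.8% of the WT list. It lay in intergenic sequence 123 kb upstream of Rbfox1, which encodes a splicing regulator of neurons and muscle, and 337 kb from the nearest Spen KO clone 3 peak. The second, at chr3:115461330-115461913, had values of 44.2 and 37.9 and lay 43.6 kb upstream of S1pr1, a G protein-coupled receptor for a sphingolipid. The third, at chr14:120362750-120363383, had values of 45.4 and 33.5 and lay 78.6 kb downstream of the TSS of Oxgr1, a receptor for oxoglutarate. The fourth, at chr19:37326478-37326968, had values of 42.9 and 34.6 and lay 35.0 kb from the TSS of March5, a ubiquitin ligase of the mitochondrial outer membrane. In each of these 4 sites both replicates were well above the threshold.

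Of the next 8 by score, 6 lay in introns. An intron of Sulf2, which removes sulfate groups from heparan sulfate, held a peak with values of 41.2 and 33.0 at chr2:165953619-165954003. The intron of Smarcc1, a subunit of the BAF chromatin remodelling complex, held one at chr9:110108519-110108933 with unequal values of 21.5 and 46.6, and its nearest TSS was that of the proteoglycan gene Cspg5 at 37.6 kb. Introns of the autophagy protease gene Atg4c and of the collagen gene Col23a1 held peaks with scores of 34.0 and 33.8. Mettl14, part of the RNA methyltransferase that writes methyladenosine, held a peak at chr3:123074715-123075272, 2.76 kb downstream of its TSS, with values of 34.6 and 32.5. Epb4.1l1, a membrane skeleton protein gene, held one with values of 32.6 and 32.1, the most even pair of the 12.

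A peak with values of 36.3 and 26.8 lay 21.6 kb upstream of Rad21, a subunit of cohesin, at chr15:51844604-51845148. The last of the 12, 38.7 kb from the TSS of Gm10417, had values of 33.8 and 26.9 and lay 3.48 kb from a Spen KO clone 3 peak.

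Members just inside the score threshold included those near Dpp6 (19.45) and Afap1 (19.51). The WT-only distal peaks just outside it were near Tbccd1 (19.45), Rtn4rl1 (19.44) and Pitpnc1 (19.42). At the distance criterion, the nearest members lay 1215 bp from the TSS of Nr1d1, 1350 bp from Dhx16 and 1432 bp from Slc5a1. The strong WT-only peaks just outside it lay 751 bp from Fgfbp3, 704 bp from Sesn2 and 657 bp from Ltbp4. The scores on both sides of the score threshold were close, while no strong WT-only peak lay between 751 and 1215 bp from a TSS.

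The share of strong distal peaks that were WT-only fell with score. It was 15.9% (95% Wilson interval 14.0 to 17.97, 206 of 1297) for scores under 22, 9.01% for 22 to 25, 3.75% for 25 to 30, 1.05% for 30 to 40 and 0.329% (2 of 607) from 40. The 2 highest were the Rbfox1 and S1pr1 peaks. The share also fell with length, from 16.5% (77 of 466) under 400 bp to 2.64% (12 of 455) from 800 bp. The members had a median length of 460 bp (95% interval 448 to 479) and the shared strong distal peaks 542 bp (536 to 547). Score was one of the values that chose the members. Weighted to the members' scores, shared strong distal peaks had a median length of 512 bp, between the unweighted value and that of the members.

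**Figure D2:**
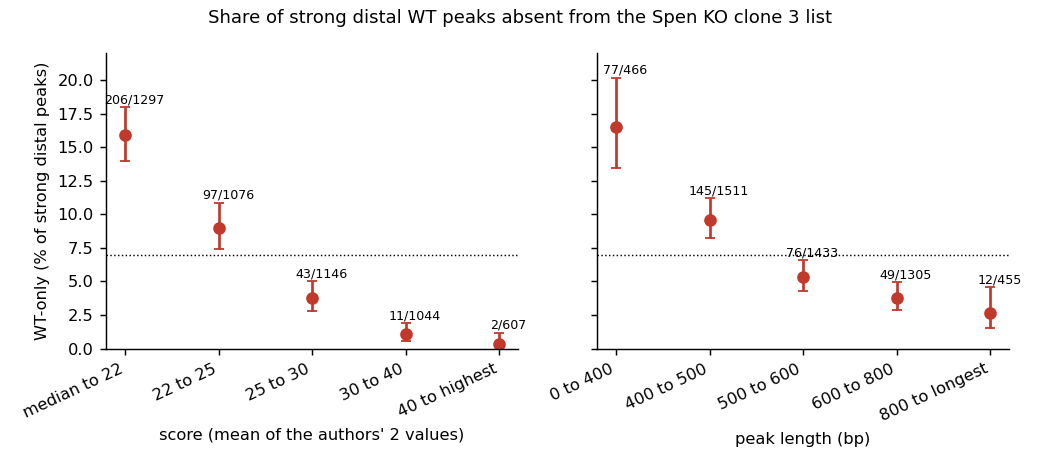
Percent of strong distal WT peaks with no overlapping Spen KO clone 3 peak (y axis) by score (left) and peak length in bp (right). Bars are 95% Wilson intervals, labels give WT-only over all peaks in the bin, and the dotted line is the share over all bins (6.94%), which the bins cross from 15.9% at the lowest scores to 0.329% at the highest.

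Absence from a list was set against how shared sites behaved in Spen KO clone 3. Of the shared strong distal peaks, 4445 had a WT score within the range of the members. Their overlapping Spen KO clone 3 peaks had a median score of 24.1, a 5th percentile of 15.01 and a lowest value of 7.53, and 723 of them (16.3%) fell below the median of the Spen KO clone 3 list (17.9). The lowest score in that list was 5.97 and the 5th percentile 8.85. These sites were chosen for having kept a peak and were not weighted to the members' scores, so they say nothing of why members lack one. Accessibility below the authors' threshold was not measured here.

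Having no overlapping Spen KO clone 3 peak was part of the rule, and the distance to the nearest one was not compared with another set. The nearest Spen KO clone 3 peak lay at a median of 26.1 kb and at least 431 bp away, with 4 members within 500 bp, 72 within 10 kb and 53 beyond 100 kb. The nearest coding TSS lay at a median of 26.6 kb (95% interval 22.7 to 32.1) and the shared strong distal peaks lay at 31.8 kb (30.2 to 33.1). Within 500 kb, the members had a median of 10 coding genes (10 to 11) and shared strong distal peaks had 8 (8 to 9). The strong distal peaks found in Spen KO clone 3 only, 951 in number, had 4 (3 to 4) and a TSS at a median of 95.3 kb. Here and below, strong for these peaks means a score no lower than the median of their own list (17.9).

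Members and shared strong distal peaks were close in the kind of sequence they lay in and in GC content, and differed in the share free of repeated words and in the share far from genes. Intergenic sequence held 57.1% of members (51.9 to 62.1) and 57.8% of shared strong distal peaks (56.4 to 59.2), and introns held 36.2% and 35.2%. Coding sequence held 6 members and untranslated exon sequence 2. The median GC content of the central 300 bp was 52.7% (52.0 to 53.3) and 52.3% (52.3 to 52.7). Of the members, 17 (4.74%, 2.98 to 7.45) were multi-copy, meaning that 50% or more of their 24-base words had 10 or more copies in the genome. The share was 5.67% (5.06 to 6.36) in shared strong distal peaks and 31.2% (28.4 to 34.2) in those found in Spen KO clone 3 only. Without the multi-copy ones, those of Spen KO clone 3 only lay at a median of 77.2 kb from a coding TSS. No word with 10 or more copies was found in 63.0% of members (57.8 to 67.8) and 52.9% of shared strong distal peaks (51.4 to 54.3). Words were counted over whole peaks, and members were shorter, at a median of 460 against 542 bp. This share was not matched for length or score. No coding TSS lay within 500 kb of 1.67% of members (0.768 to 3.598) and 4.49% of shared strong distal peaks (3.94 to 5.11). Weak distal WT-only peaks had shares of 70.1% and 1.09%, so neither trait was particular to the members.

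Motif matches were counted on both strands of the central 300 bp for 26 motifs. The intervals of members and shared strong distal peaks, not weighted by score, were apart for the CTCF core and for NFY, and overlapped for the others named here. Counted over whole peaks in place of the central 300 bp, they overlapped for NFY (17.3%, 13.7 to 21.5, against 13.5%, 12.5 to 14.5) and for the CTCF core (5.29%, 3.41 to 8.12, against 2.95%, 2.51 to 3.47). A match is a description of the letters and not evidence of binding, and peaks sharing sequence are not independent. The core of the CTCF site was present in 17 members (4.74%, 2.98 to 7.45) and in 2.18% of shared strong distal peaks (1.81 to 2.64). The share was 2.99% once shared peaks were weighted to the score deciles of the members, which lies inside the members' interval, and 2.31% over all autosomal WT peaks. Under a score of 22, 23.1% of strong distal peaks with the core were WT-only (9 of 39, 12.6 to 38.3) and 15.7% of those without it (13.8 to 17.8), and from 22 to 25 the shares were 10.3% (4.06 to 23.6) and 8.97% (7.38 to 10.9), so the intervals overlapped in both bins. With few peaks in each, the shares were 13.6% (3 of 22, 4.75 to 33.3) and 3.56% (2.62 to 4.81) from 25 to 30, and 5.56% (1 of 18, 0.988 to 25.8) and 0.975% (0.530 to 1.78) from 30 to 40. In weak distal WT-only peaks, those below the score threshold, it was 4.98% (4.30 to 5.77), close to that of the members. In strong distal peaks found in Spen KO clone 3 only it was 0.946% (0.499 to 1.79).

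None of the 17 peaks with a CTCF core match reached 10% repeated sequence. Limited to peaks below 10%, the shares were 5.86% (17 of 290, 3.69 to 9.19) and 2.83% (2.33 to 3.43). The highest scores among the 17 were those of the Mettl14 peak (33.6) and the Il33 peak at chr19:30022684-30023232, which lay in an intron of that cytokine gene with values of 29.0 and 28.4. Other members with the match lay in a coding exon of Synpo2l (24.1), 6.13 kb upstream of Donson (25.4) and 15.9 kb upstream of Tnfrsf14 (23.6). The share in members stayed above that in shared peaks under all 9 alternatives to the definition of a member, from 4.25% to 6.67% against 1.31% to 2.30%. The highest value was 2 of 30 peaks (1.85 to 21.3), from the upper quartile of scores. The alternative sets overlap and their shared peaks were not weighted by score, so they are not independent support.

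The NFY motif CCAATCA was present in 54 members (15.04%, 11.7 to 19.1) and in 10.4% of shared strong distal peaks (9.54 to 11.3). Weighted to the members' scores, the shared value was 8.83%, below the members' interval. The motif was present in 6.87% of weak distal WT-only peaks, 4.31% of strong distal peaks found in Spen KO clone 3 only and 9.81% of all autosomal WT peaks. NFY is a ubiquitous factor that binds CCAAT boxes and opens chromatin. Under a score of 22, 27.8% of strong distal peaks with the motif were WT-only (35 of 126, 20.7 to 36.2) and 14.6% of those without it (12.7 to 16.7), and from 22 to 25 these shares were 15.4% (9.70 to 23.5) and 8.33% (6.76 to 10.24). From 25 to 30 they were 2.68% and 3.87%. From 30 to 40, 0 of 124 peaks with it and 1.20% of those without it were members.

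The NFY difference depended on how members were defined. With the first or the second replicate's value alone as the score it was 11.1% of WT-only peaks against 10.1% and 10.5% of shared peaks, and from the upper quartile of scores it was 1 of 30 (3.33%) against 12.1%. Among peaks with under 10% repeated sequence the shares were 13.4% (9.996 to 17.9) and 10.5% (9.56 to 11.6). The pentamer CCAAT alone was in 39.8% of members and 38.02% of shared peaks, with overlapping intervals.

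AP-1 matches (TGANTCA), bound by Fos and Jun proteins, were present in 55 members (15.3%, 11.96 to 19.4) and 11.9% of shared strong distal peaks (11.05 to 12.9), and their intervals overlapped. They were apart with both lists at an IDR of at most 0.01 (15.6%, 13.2 to 18.3, against 11.5%, 10.6 to 12.4) and, barely, with the first replicate's value alone (16.04%, 12.932 to 19.7, against 11.98%, 11.1 to 12.928). The order turned with the second value alone (11.3% against 11.8%) and from the upper quartile of scores (3 of 30 against 12.16%). Intervals also overlapped for motifs of pluripotency factors. The POU octamer ATGCAAAT, read by Oct4, was in 15 members (4.18%, 2.55 to 6.78) and 5.53% of shared peaks (4.92 to 6.21). The KLF motif GGGTGTGG was in 11 members (3.06%, 1.72 to 5.40) and 4.57% (4.02 to 5.20). The Rbpj motif GTGGGAA was in 19 members (5.29%, 3.41 to 8.12) and 6.28% of shared peaks (5.63 to 6.998). The composite site of OCT4 and SOX2 and the full p53 site had 0 matches in 359 members, and only 1 and 2 among all 5170 strong distal peaks.

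**Figure D3:**
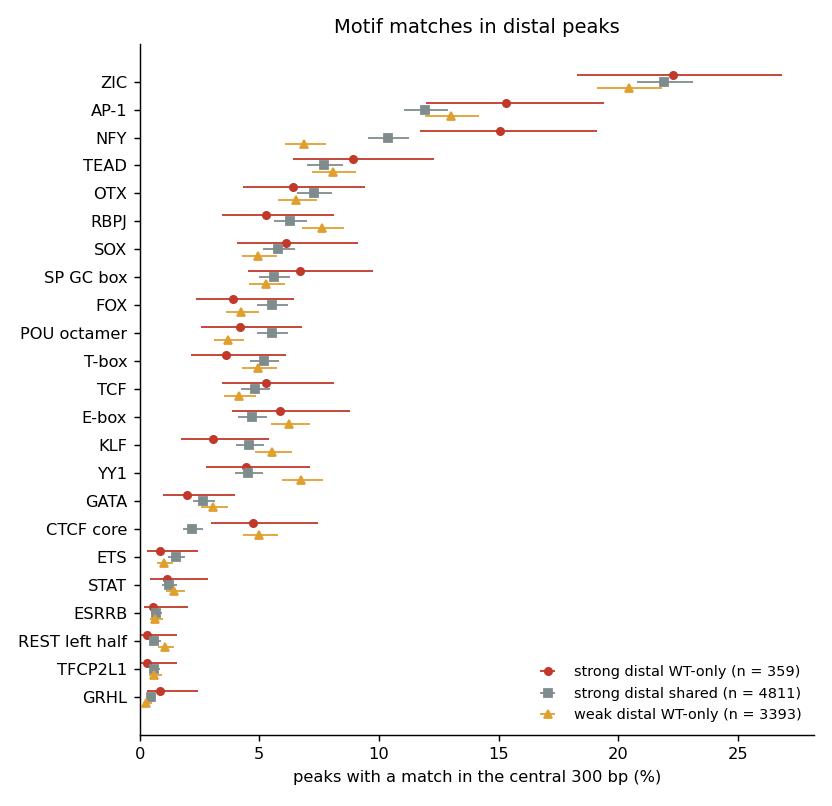
Percent of peaks with a match in the central 300 bp (x axis) for each motif with at least 20 matches among shared strong distal peaks (y axis), with 95% Wilson intervals. Red circles are the strong distal WT-only peaks, grey squares the shared strong distal peaks and orange triangles the weak distal WT-only peaks. The red and grey intervals are apart for NFY (15.04% against 10.4%) and the CTCF core (4.74% against 2.18%) in this window, and overlap over whole peaks.

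Some members shared sequence with each other. At 70% identity over at least 100 bp, 109 members (30.4%) matched another WT peak and 57 matched another member. The largest group joined 10 members, with those near Glo1 (27.4), Cdh9 (24.0) and Slc1a3 (23.4) the highest, and matched 459 WT peaks, of which 34 were WT-only. A second group of 5, including peaks 1066 kb from Amy2a5 and near Pcdh10 and Vmn2r58, had a median of 94.9% repeated sequence. Its sequences matched 580 WT peaks, 77 of them WT-only. In both groups most similar peaks were shared with Spen KO clone 3, as were most autosomal WT peaks, of which 26.0% were WT-only. Nothing particular to these groups is read from this.

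Several NFY matches came with such groups. In a group of 5 that included the Amigo2 peak, 4 held CCAATCA, and at 80% identity a trio next to the zinc finger gene models Gm14430, Gm14432 and Gm14326 on chromosome 2 all held it. The trio lay 3.66, 3.69 and 3.29 kb from those genes' TSSs, with scores of 21.8, 21.0 and 20.2, and reads of such near-identical copies can be assigned uncertainly.

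The members were dispersed over the autosomes. Their share of strong distal peaks ran from 4.23% on chromosome 10 (12 of 284, 2.43 to 7.24) to 13.5% on chromosome 19 (14 of 104, 8.19 to 21.3). Chromosome 9 had 12.1% (30 of 247, 8.64 to 16.8) and chromosome 15 had 10.6% (23 of 218, 7.13 to 15.3), and these 3 were the chromosomes whose intervals lay above 6.94%. The ranks of shared peaks were compared on the same chromosomes. For a shared peak, the rank shift was taken as its percentile by score in Spen KO clone 3 minus its percentile in WT. The median was -3.28 points on chromosome 9 (-4.51 to -2.12), -3.47 on chromosome 19 (-5.07 to -2.06) and -1.06 on chromosome 15 (-2.26 to -0.03). Chromosome 11 had a median shift of -3.31 with a share of 6.15%, chromosome 4 had -1.20 with 5.52%, and chromosome 3 had 1.18 (0.19 to 2.17) with 8.87%. The part of chromosome-wide differences between the lines was not tested.

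**Figure D4:**
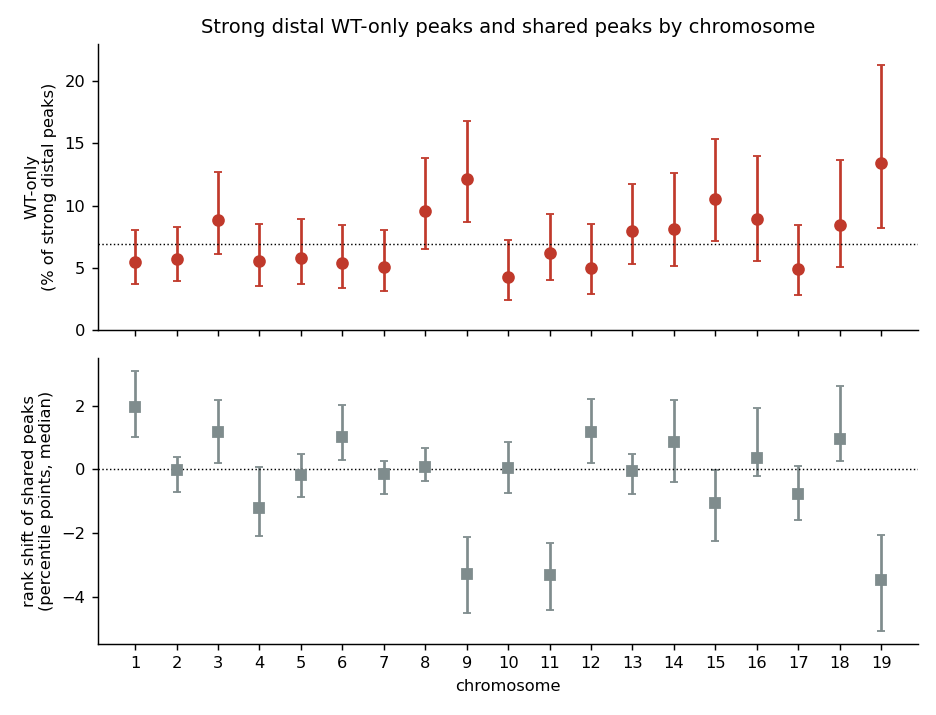
By chromosome (x axis), the percent of strong distal WT peaks that were WT-only with 95% Wilson intervals (top, dotted line at 6.94%) and the median rank shift of all shared peaks in percentile points with 95% binomial intervals (bottom, negative where peaks rank lower in Spen KO clone 3). Chromosomes 9 and 19 stand high in the top panel (12.1% and 13.5%) and low in the bottom one, and chromosome 11 is low in the bottom one with 6.15% in the top.

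Within chromosomes, few members lay close together. Only 16 (4.46%, 2.76 to 7.12) had another within 50 kb, and 2.49% of shared strong distal peaks (2.09 to 2.97) had a member within that distance. Chained at 50 kb, the members formed 8 pairs and no larger group. The closest pair was 1.16 kb apart near Rcbtb2 on chromosome 14, with scores of 20.8 and 23.4. Pairs near E330020D12Rik, Fez1 and Ugt8a spanned 15.1, 16.5 and 42.6 kb. Of 500 windows of 5 Mb, 277 held no member and 1 held 5, on chromosome 16. On chromosome 1, 23 of 422 strong distal peaks (5.45%) were members, and none of the 44 between 100 and 130 Mb was. With so few peaks, nothing particular to this segment is read from the count.

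Shared peaks within 50 kb of members had a negative median rank shift, and its interval lay below 0 in some classes and reached past it in others. Within 50 kb of a member, 120 shared strong distal peaks had a median shift of -3.84 points (95% interval -8.23 to -0.15), and those farther away 0.34 (0.04 to 0.66). Within 10 kb the median was -8.22 (-11.7 to -0.43), from only 17 peaks, of which 76.5% ranked lower. Shared promoter peaks within 50 kb shifted by -5.13 (-8.39 to -1.88, n = 183) and those farther away by -2.77 (-3.12 to -2.46). Over all shared peaks the values were -2.96 (-5.05 to -1.29, n = 395) and -0.03 (-0.18 to 0.08). Over all shared distal peaks, weak ones included, the median within 50 kb was -1.38 (-3.81 to 0.73) and farther away 3.11 (2.72 to 3.51). Within 10 kb, shared promoters (-3.06, -9.85 to 0.47) were near those farther away (-2.81). Neighbouring peaks are not independent, so the intervals are likely too narrow.

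The shift within 50 kb was also present within chromosomes. After the median of the same class of shared peak on the same chromosome was subtracted, shared strong distal peaks within 50 kb stood at -3.69 (-7.62 to -0.43) and shared promoters at -1.21 (-5.63 to -0.10). Within 10 kb the centred values were -5.18 (-11.0 to -0.43, n = 17) and -0.86 (-7.21 to 3.40, n = 25). This centring was chosen after seeing the data.

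**Figure D5:**
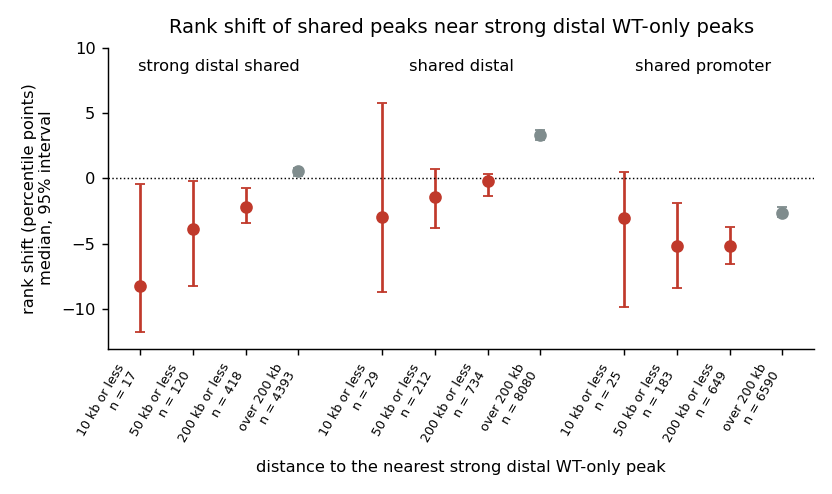
Median rank shift in percentile points with its 95% binomial interval (y axis) of 3 classes of shared peak at increasing distance from the nearest strong distal WT-only peak (x axis, with the number of peaks). Red points lie within the distance given and grey points beyond 200 kb. In shared strong distal peaks the median rises from -8.22 within 10 kb to 0.53 beyond 200 kb, with wide intervals at short distance.

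The members had 349 different nearest coding genes, and 10 genes were nearest to 2 members each. Rbfox1 had its second member at 105 kb, and Large, a glycosyltransferase gene, had an intronic peak 174 kb from its TSS (27.2) and another at 570 kb (19.7). Arid2, a subunit of the PBAF remodelling complex, had peaks at 89.4 kb (23.1) and 1.83 kb (21.3), the second 595 bp from a Spen KO clone 3 peak. Of the 142 members inside coding genes, 113 lay in the nearest gene itself. Of the 349 genes, 181 had a WT promoter peak, and the strongest of these was shared with Spen KO clone 3 in 138 (76.2%). Over all autosomal WT promoter peaks 79.3% were shared (78.4 to 80.1). The first share counts genes by their strongest promoter peak and the second counts peaks.

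Gene lists were examined within 100 kb of a TSS, where 4.64% of 21410 coding autosomal genes had a member. The 9 lists held 170 such genes, and 15 of them (8.82%) had one. No core pluripotency gene (0 of 11) and no Polycomb gene (0 of 17) did. The other counts were 1 of 16 naive pluripotency factors, 2 of 16 formative and primed markers, 5 of 22 germ layer and extraembryonic regulators, 1 of 19 neural genes, 2 of 23 genes of the Notch pathway, 3 of 28 genes of retrovirus silencing and Spen partners, and 1 of 18 signalling feedback genes. The counts were small, and nothing particular to a list is read from them.

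Among regulators of lineage, Sox17, an endoderm factor, had a member 47.8 kb away at chr1:4534104-4534565 with values of 23.9 and 27.2. Wnt3, a ligand needed for the primitive streak, had one 66.9 kb away in an intron of Nsf (25.3 and 20.3). Gsc, a factor of the organizer, Mesp1, of early mesoderm, and Elf5, of trophoblast, had members with scores of 21.2, 19.5 and 20.2 at 96.0, 78.1 and 50.7 kb.

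Fgf4, the ligand whose signal primes mESCs to differentiate, had a member 9.87 kb from its TSS at chr7:152037221-152037630, with values of 22.4 and 18.6 and a match to the Esrrb motif TCAAGGTCA. A second at 80.3 kb, with a POU octamer and values of 19.8 and 19.7, lay 1.78 kb from the TSS of the cyclin gene Ccnd1. Both also lay 45.01 and 45.12 kb from Fgf15, a primed state marker. Grhl2, an epithelial factor of the formative state, had members at 34.9 kb (19.5) and 66.1 kb (22.7).

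In the Notch pathway, an intron of Dtx4, a ubiquitin ligase of the Deltex family, held a member with values of 27.1 and 22.4. The peak near Tnfrsf14 described for its CTCF core lay 16.5 kb from Hes5, a repressor induced by Notch, and had values of 23.8 and 23.4. Among genes of retrovirus silencing, Pphln1, a subunit of the HUSH complex, held an intronic member at chr15:93284523-93284907 with values of 29.7 and 23.2. Cbx1 and Cbx3, which encode heterochromatin proteins, had members 75.4 and 46.8 kb away with scores of 20.1 and 21.8. The immediate early gene Egr1 had one at 26.2 kb (21.1). In none of these cases is the target of the peak known from position alone.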

How the data were processed

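Haploid mESCs (HATX WT and Spen KO) were profiled by ATAC-seq. By the methods and the submitters' processing notes, the authors used cutadapt for trimming and Bowtie2 for mapping to mm9, kept unique, properly paired and deduplicated reads, called peaks with MACS2 on each replicate, and kept those passing their IDR threshold. Because only unique reads were kept, repeated sequence can be under-called. Each deposited file gives, per peak, coordinates (read as counted from 1, since length equals end minus start plus 1) and a value per replicate. Per the file, these are scores on a scale the authors did not name. The highest IDR was 0.0500 in both lists. Read depth is unknown, and other columns hold no per-sample values.

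The WT list held 22753 peaks (median length 546 bp) and the Spen KO clone 3 list 23722 (526 bp). TSSs came from GENCODE on mm9, and all peaks lay inside the reference chromosomes. Sharing needed 1 bp, repeated sequence was counted with 24-base words, and similarity with BLAST 2.17.0 (100 bp, e-value 1e-10). Intervals are at 95%, by Wilson's method for shares and from the binomial distribution for medians, and cover only counting error. With 1 list per line there was no test between lines. Named peaks were the 12 highest-scoring, those beside each threshold, the closest groups, those within 100 kb of list genes, apart from items not reported here, and the highest-scoring with a described motif. The members and lists were chosen with earlier results of these data known. Overlap, distances, intervals and word copies were tested on simulated data. Alternatives changed the overlap, score, IDR, TSS and replicate rules. Scripts ran under Python 3.11.15 with scipy 1.17.1, pandas 2.3.3, numba 0.67.0, networkx 3.6.1, matplotlib 3.10.9 and numpy 2.4.6.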

Additional observations from a re-analysis of the deposited data

How the results depend on the processing

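Of 70 values recomputed under alternatives, 56 stayed within their limits, 14 moved and 0 reversed. Only the rank shift had a sign that could reverse. The 70 leave out the comparisons of motif shares with shared peaks, where the order turned for NFY and AP-1 under some alternatives. Over whole peaks, 10 of 26 motif shares also moved, all upward as the longer windows allow, such as KLF from 3.06% to 6.69% and the Rbpj motif from 5.29% to 10.9%. With scores from the upper quartile, 30 peaks remained (1.34% of strong distal peaks), 56.7% of them inside coding genes and 0 (0.0%) within 50 kb of another. With both lists limited to an IDR of at most 0.01, the WT-only set grew to 790 (15.4%), with a median GC of 53.7% and 7.72% within 50 kb of another, since a stricter Spen KO clone 3 list removes overlapping peaks by construction. Leaving out the value of either replicate gave shares of WT-only peaks from 8.58% to 9.34%, with 494 peaks without the first replicate's value and 449 without the second's. At 25% in place of 50% of the 24-base words 10.6% were multi-copy, within 25 kb 1.67% and within 100 kb 7.80% had another member, and the GC content of whole peaks was 51.7%. The median rank shift near members was negative under every alternative run, from -4.45 without the first replicate's value to -1.40 with both lists at an IDR of at most 0.01, and its interval passed 0 for the upper quartile of scores (-16.1 to 1.36) and within 10 kb (-8.22 to 0.47). No paired analysis was possible because each line has 1 list. Absence from a list depends on the authors' threshold and on read depth, which is unknown. Spen KO clone 2 and reads were not analysed here, so neither variation between clones nor weak signal below the threshold was measured.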
